A study of Mus musculus with 6 samples.

Results

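Ptpn5, Ptprr, Ptpn11 and Ptpn1 encode protein tyrosine phosphatases that act on ERK or on RAS signalling, and their hippocampal transcript levels are described here in mice expressing a mutant Braf in neurons. The 4 genes were picked by symbol from the 20620 genes of the deposited table, and all 4 were present and passed the filter on low counts. Ptpn5 was picked because its level was higher in the mutant-expressing group. Its difference between the groups is therefore given as a description without a test. The other 3 were chosen for their function.

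Each library came from the hippocampus of 1 male mouse on the C57BL/6J background, and bulk RNA was sequenced. The n-Braf group (Braf Q241R/+ ;CaMKII-Cre, 3 mice aged 33, 32 and 34 weeks) expresses Braf Q241R in mature excitatory neurons, driven by the CaMKII-Cre transgene. The control group (Braf Q241R Neo/+, 3 mice aged 32, 32 and 31 weeks) carries the same mutant allele with its Neo cassette still in place and no Cre. All 6 mice are thus heterozygous for the Q241R allele, and the groups differ in Cre and in the Neo cassette together, whose effects cannot be told apart from those of the mutant protein. In bulk tissue, fewer cells of a type and less RNA per cell cannot be told apart either.

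The libraries held between 25227112 and 31832245 estimated counts. Braf itself, the check of the labels, had 185, 184 and 205 CPM in n-Braf mice, against 116, 123 and 116 CPM in the controls. CPM are the usual counts relative to library size, with sizes corrected by TMM, the trimmed mean of M values. Over all 20604 genes tested, edgeR's quasi-likelihood test called 0 genes at an adjusted p of 0.05 (0%), while 1405 had an unadjusted p under 0.05 (6.82%, with 3.09% higher in n-Braf). On the same counts DESeq2 called 79 genes, robust quasi-likelihood 5, quasi-likelihood without its legacy setting 1 and limma-voom 0. None of the 29 genes with an adjusted p under 0.05 in the authors' deposited table (0.141% of its genes) is one of the 4 phosphatases. The log2 fold changes in the authors' deposited table were 0.36 for Ptpn5, 0.32 for Ptprr, -0.0020 for Ptpn11 and 0.12 for Ptpn1.

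BRAF is a kinase that, below RAS, activates MEK, and MEK activates ERK by placing phosphate on a threonine and a tyrosine of its activation loop. Removal of the phosphate on the tyrosine by a tyrosine phosphatase switches ERK off. Ptpn5 encodes STEP, the striatal-enriched phosphatase, a neuronal enzyme best known for opposing synaptic strengthening by dephosphorylating ERK, p38, the kinases FYN and PYK2, and glutamate receptor subunits. Ptprr encodes PTP-SL and related forms that bind ERK in the same way. Ptpn11 encodes SHP2, which acts in the opposite sense: it is recruited by its SH2 domains to receptors and adaptors and is needed for full activation of RAS and ERK. Activating mutations of human PTPN11 cause Noonan syndrome, which like cardio-facio-cutaneous syndrome belongs to the RASopathies. Ptpn1 encodes PTP1B, which sits on the endoplasmic reticulum and dephosphorylates the insulin receptor and the leptin-receptor kinase JAK2.

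The structural basis of these roles can be read in the coding sequence. STEP and PTP-SL carry a kinase interaction motif, a short docking stretch that holds ERK and p38, and in STEP a serine in this stretch is the site at which protein kinase A weakens the binding. A search of the longest coding transcript of each gene in GENCODE M21 (GRCm38) for the 4 residues Arg, Arg, Gly and Ser found 1 match in Ptpn5 and 1 in Ptprr, and 0 in Ptpn11 and Ptpn1. The peptides around the match were identical between Ptpn5 and Ptprr over 16 residues, starting at residue 214 of 541 in Ptpn5 and at residue 331 of 656 in Ptprr. Over these 48 coding bases 37 were the same. The bases are shown 5′ to 3′ on the coding strand because they mark which members hold these 4 residues, with their codons in capitals. No match says only that the 4 residues are not in that transcript, and binding of ERK was not tested. Each stretch crosses an exon junction, within chr7:47088646-47089790 (minus strand) for Ptpn5 and chr10:116188455-116226192 (plus strand) for Ptprr.
Ptpn5: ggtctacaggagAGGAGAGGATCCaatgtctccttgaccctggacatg
Ptprr: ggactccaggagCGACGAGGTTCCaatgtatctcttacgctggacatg

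All 4 share the catalytic loop of tyrosine phosphatases, which starts with a histidine and the cysteine that attacks the phosphate. The 9 codons of this loop are shown with the cysteine codon in capitals, because they set what the 4 enzymes have in common beside what separates them. The cysteine is residue 472 in Ptpn5, 587 in Ptprr, 463 of 597 in Ptpn11 and 215 of 432 in Ptpn1. The loops lie at chr7:47079341-47079454 (minus strand, across a junction), chr10:116252969-116256148 (plus strand, across a junction), chr5:121143611-121144537 (minus strand, across a junction) and chr2:167974207-167974233 (plus strand, within 1 exon).
Ptpn5: cacTGCagtgcagggattgggagaact
Ptprr: cacTGCagtgcggggattgggagaact
Ptpn11: cacTGCagcgctgggattggccggaca
Ptpn1: cacTGCagcgccggcatcgggaggtca
Ptpn5 and Ptprr were the closest pair, with 26 of 27 bases the same. Ptpn11 matched each of them at 21 bases, and Ptpn1 matched each at 20. All 9 residues were the same in Ptpn5, Ptprr and Ptpn11, and 8 of 9 in Ptpn1 against any of the others.

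Ptpn5 lies on chromosome 7 at 47077795 to 47133684 (minus strand). Its level was 89.5, 96.3 and 83.4 CPM in the n-Braf libraries, against 65.6, 68.9 and 75.2 CPM in the controls. The 3 n-Braf libraries all lay above the 3 controls, and the lowest n-Braf library exceeded the highest control by 10.8%. The counts behind these values ran from 2449 to 3061 in n-Braf and from 1759 to 1932 in the controls, so counting noise is small beside the differences between mice. The means were 89.7 ± 6.48 CPM in n-Braf mice and 69.9 ± 4.89 CPM in control mice (SD, n = 3 each), or 1.28-fold (0.36 on the log2 scale, SE 0.077). The pooled SD within groups was 0.10 on the log2 scale, and 38.5% of the 1665 genes within 0.5 log2 units of its level varied more than this between mice of a group.

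**Figure D1:**
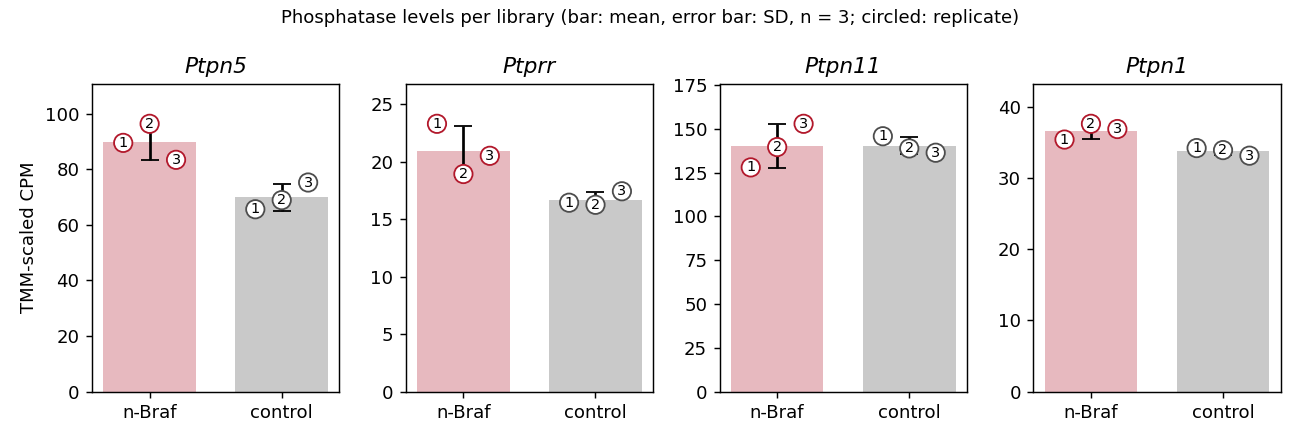
TMM-scaled CPM of each phosphatase gene in n-Braf (left, red) and control (right, grey) libraries; bars are means, error bars SDs over 3 libraries, and circled numbers are replicates. For Ptpn5, Ptprr and Ptpn1 every n-Braf library lies above every control library, with gaps of 10.8%, 8.61% and 3.49%, while the groups overlap for Ptpn11. Of all genes tested, 6.09% separate in this way. Ptpn5 was picked because it was higher in n-Braf, and neither Ptprr nor Ptpn1 passed the test over all genes.

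Ptprr, the other gene with the docking motif, lies on chromosome 10 at 116018213 to 116274932 (plus strand). Its level was 23.3, 18.9 and 20.5 CPM in n-Braf mice, against 16.4, 16.3 and 17.4 CPM in the controls. Its estimated counts are not whole numbers (435.21 to 744.84), because the counting shared some reads with other features. Again the groups did not overlap, and n-Braf 1 was the highest library, where for Ptpn5 it was n-Braf 2. Non-overlap with n-Braf above was found for 6.09% of all genes tested, and with n-Braf below for 5.44%. The means were 20.9 ± 2.21 CPM in n-Braf mice and 16.7 ± 0.633 CPM in control mice (SD, n = 3 each), with a log2 fold change of 0.32 (SE 0.10, 95% interval 0.095 to 0.55). It did not pass the test over all genes (edgeR quasi-likelihood, adjusted p = 0.594). Its log2 fold change was exceeded by 6.17% of all genes.

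Ptpn11 was the most abundant of the 4 in CPM and showed no separation between the groups. The gene is on chromosome 5 at 121130533 to 121191397 (minus strand). Its level was 128, 139.5 and 153 CPM in the n-Braf libraries, against 146, 139 and 136 CPM in the controls. The n-Braf group thus held both the lowest and the highest library. The means were 140.1 ± 12.4 CPM in n-Braf mice and 140.3 ± 4.88 CPM in control mice (SD, n = 3 each), and the log2 fold change was -0.0019 (SE 0.076, edgeR quasi-likelihood adjusted p = 0.998). The 95% interval, from -0.17 to 0.17, leaves room for differences of that size in either direction.

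Ptpn1, on chromosome 2 at 167932057 to 167979385 (plus strand), had 35.4, 37.6 and 36.9 CPM in n-Braf mice, against 34.2, 33.9 and 33.1 CPM in the controls. The groups did not overlap, by a gap of 3.49%. The means were 36.6 ± 1.13 CPM in n-Braf mice and 33.7 ± 0.553 CPM in control mice (SD, n = 3 each), with a log2 fold change of 0.12 (SE 0.067, 95% interval -0.033 to 0.27) that did not pass (edgeR quasi-likelihood adjusted p = 0.811). Ptpn1 had the smallest spread of the 4 within groups, with a pooled SD of 0.036 on the log2 scale. Of the 2473 genes near its level, 97.0% varied more. Its counts ran from 851 to 1195, and counting noise was not separated from differences between mice here. For Ptprr the pooled SD was 0.11, and for Ptpn11 it was 0.097.

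Levels can be compared between genes only per length. Divided by the union of annotated exons, mean levels over the 6 libraries were 18.7 CPM per kilobase for Ptpn11, 13.8 for Ptpn5, 6.36 for Ptpn1 and 3.17 for Ptprr. On this scale Ptpn5 was at 15.5 ± 1.12 CPM per kilobase in n-Braf and 12.1 ± 0.844 in the controls, and Ptpn11 at 18.7 ± 1.66 in n-Braf and 18.7 ± 0.651 in the controls (SD, n = 3 each). The order of these 2 genes depends on the length used. With the longest coding transcript, a length chosen after the data were seen, Ptpn5 was at 25.4 and Ptpn11 at 25.04 CPM per kilobase, closer than the spread of either over libraries. With the longest transcript of any kind Ptpn5 was at 24.2 and Ptpn11 at 18.8. Ptpn1 and Ptprr kept the third and the fourth place with each length.

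Ratios within a library need no scaling. The ratio of Ptpn5 to Ptpn11 counts was 0.699, 0.690 and 0.546 in the n-Braf libraries, against 0.450, 0.496 and 0.552 in the controls. Here n-Braf 3, the library with the lowest Ptpn5 and the highest Ptpn11 of its group, lay just below control 3, so the groups overlapped. The ratio of Ptprr to Ptpn11 counts was 0.182, 0.136 and 0.134 in n-Braf, against 0.113, 0.117 and 0.128 in the controls, without overlap. Against Ptpn1 the groups overlapped for both, with Ptprr to Ptpn1 at 0.659, 0.503 and 0.557 in n-Braf, against 0.481, 0.480 and 0.526 in the controls, and Ptpn5 to Ptpn1 at 2.53, 2.56 and 2.26 in n-Braf, against 1.92, 2.03 and 2.27 in the controls. Ptprr to Ptpn5 did not separate the groups, at 0.234 ± 0.0336 in n-Braf and 0.240 ± 0.00993 in the controls (SD, n = 3 each).

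Classical tyrosine phosphatases form a family of receptor and cytosolic enzymes, and 34 of the 38 genes listed for it were tested. The other 4 (Ptpn7, Ptpn20, Ptprg and Ptprv) were not analysed here. Of the 34, 25 had a log2 fold change above 0 and 9 below, with a median of 0.098, beside 49% above 0 and a median of -0.0042 over all genes tested. In 8 of the 34, Ptpn5 among them, every n-Braf library lay above every control, and in 0 every one lay below. Leaving out the 4 members, 5 of 30 lay above and 0 below, with a median of 0.087, beside 6.09% above and 5.44% below over all genes tested. The test across all genes called 0 of the 34.

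**Figure D2:**
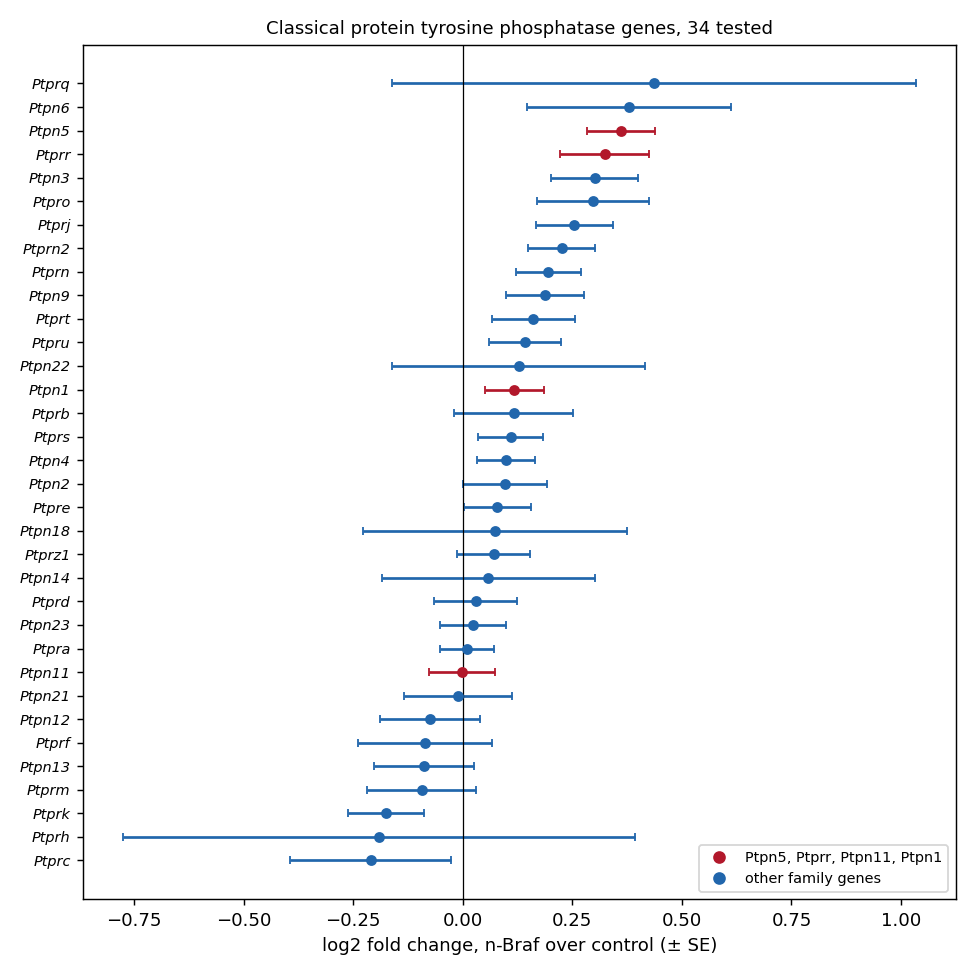
Log2 fold change of n-Braf over control (x axis, with SE) for the 34 tested genes of the classical tyrosine phosphatase family (y axis, ordered by value); Ptpn5, Ptprr, Ptpn11 and Ptpn1 are red and the others blue. Ptpn5 (0.36) and Ptprr (0.32) have the third and the fourth highest values, behind Ptprq and Ptpn6, which have few counts and wide errors. Ptpn5 was picked because it was higher in n-Braf, so its place in this order is no finding.

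Outside the 4 members, the 8 family genes with the smallest unadjusted p had adjusted p-values between 0.630 and 0.812 (edgeR quasi-likelihood). Ptpn3, a phosphatase that binds membranes and PDZ partners, was at 67.4 ± 9.12 CPM in n-Braf mice and 54.7 ± 3.73 CPM in control mice (SD, n = 3 each), a log2 fold change of 0.30. Ptprn and Ptprn2 encode proteins of dense-core secretory vesicles. Ptprn was at 295 ± 14.3 CPM in n-Braf mice against 258 ± 19.2 CPM in control mice, and Ptprn2 at 244 ± 18.3 CPM in n-Braf mice against 209 ± 12.9 CPM in control mice (SD, n = 3 each). Ptprj, a receptor-type phosphatase, had a log2 fold change of 0.25, Ptpro of 0.30, Ptpn9 of 0.19 and Ptpru of 0.14. Ptprk, a cell adhesion receptor, was the only one of these 8 below 0, at -0.18. Per length, Ptprn was the most abundant of the family at 65.1 CPM per kilobase of exon, followed by Ptprs (35.8), Ptprn2 (26.3), Ptprj (20.4) and Ptprz1 (18.9). Ptpn11 ranked 6, Ptpn5 8, Ptpn1 16 and Ptprr 25 of 34.

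Substrates of STEP include ERK, FYN and glutamate receptor subunits. Of the 7 listed genes 6 were above 0 and 1 below (median 0.050 on the log2 scale), and in 0 of them the groups were separate. Over all genes tested, 49% were above 0, 6.09% were separate with n-Braf above and 5.44% with n-Braf below. Mapk3, which encodes ERK1, was at 45.4 ± 3.98 CPM in n-Braf mice and 47.3 ± 2.32 CPM in control mice (SD, n = 3 each). Grin2b, an NMDA receptor subunit, had a log2 fold change of 0.17 (SE 0.085), Gria2, an AMPA receptor subunit, of 0.15 (SE 0.10) and the kinase gene Fyn of 0.095 (SE 0.063). The smallest adjusted p in this list was 0.780 (edgeR quasi-likelihood).

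Protein kinase A phosphorylates STEP, and calcineurin and protein phosphatase 1 oppose this. Of 7 genes listed for these regulators 5 were above 0 and 2 below (median log2 fold change 0.062), and 0 passed. Over all genes tested, 49% were above 0, 6.09% were separate with n-Braf above and 5.44% with n-Braf below. Ppp1r1b, which encodes DARPP-32, an inhibitor of protein phosphatase 1, was the only one of the 7 whose groups did not overlap. Its level was 19.4, 18.3 and 17.2 CPM in n-Braf mice, against 38.6, 29.6 and 19.7 CPM in the controls. Control 3 was close to n-Braf 1, and the higher values were those of controls 1 and 2, the libraries with high choroid plexus markers (2222 and 1236 CPM, against 27.3 CPM in control 3), whose part in this difference was not tested. The gene averaged 18.3 ± 1.09 CPM in n-Braf mice and 29.3 ± 9.43 CPM in control mice (SD, n = 3 each), with a log2 fold change of -0.68 (edgeR quasi-likelihood adjusted p = 0.562). The calcineurin subunit gene Ppp3cb was at 0.15 and the protein phosphatase 1 gene Ppp1ca at 0.11 on the same log2 scale, and Prkacb, a catalytic subunit of protein kinase A, at 0.062.

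Receptors, adaptors and regulators that bind SHP2 or act with it had 10 of 11 genes above 0 (median log2 fold change 0.076), with 3 separate above, 1 separate below and 0 past the test over all genes. Over all genes tested, 49% were above 0, 6.09% separate above and 5.44% separate below. Spred1, an inhibitor of RAS activation, was at 151 ± 15.9 CPM in n-Braf mice and 123 ± 11.3 CPM in control mice, and Sirpa, a receptor that recruits SHP2, at 230 ± 15.1 CPM in n-Braf mice and 204 ± 8.16 CPM in control mice (SD, n = 3 each). Gab1, the docking protein that brings SHP2 to growth factor receptors, was at 23.96 ± 2.06 CPM in n-Braf mice against 29.96 ± 3.48 CPM in control mice (SD, n = 3 each, log2 fold change -0.32, SE 0.11). The neurotrophin receptor gene Ntrk2 was at 0.11 (SE 0.069). Of 8 genes for substrates of PTP1B and of the receptors it acts on, 3 were above 0 and 5 below (median -0.011). The groups were separate in 0 of these 8 with n-Braf above and in 1 with n-Braf below. The insulin receptor substrate gene Irs2 was at 0.24 (SE 0.088), the epidermal growth factor receptor gene Egfr at -0.18 (SE 0.095) and the leptin receptor gene Lepr at -1.09 (SE 0.42). Lepr was at 3.19, 3.08 and 1.57 CPM in n-Braf mice, against 9.10, 4.90 and 2.73 CPM in the controls, so the groups overlapped, and its order in the controls is that of their choroid plexus sums, whose part was not tested.

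In the cascade between RAS and the kinases below ERK, 18 of 32 listed genes were above 0 (median log2 fold change 0.019), and 0 passed over all genes. The groups were separate in 5 of the 32 with n-Braf above and in 2 with n-Braf below, beside 6.09% and 5.44% over all genes tested. Beside Braf, the adaptor gene Shc3 was at 0.49 (SE 0.10), Rps6ka3, a kinase activated by ERK, at 0.29 (SE 0.074) and its relative Rps6ka5 at -0.30 (SE 0.089). Among genes that ERK activity is known to induce, 15 of 17 were above 0 with a median of 0.31, and in 8 the groups were separate with n-Braf above, beside 49% above 0 and 6.09% separate above over all genes tested. The largest of the 4 with the smallest p was Dusp6, which encodes the main cytoplasmic dual-specificity phosphatase of ERK, at 36.1 ± 3.12 CPM in n-Braf mice and 20.5 ± 1.88 CPM in control mice (SD, n = 3 each, log2 fold change 0.82). Etv5 and Spred3 were both at 0.63, and Spred2 at 0.32, close to the values of Ptpn5 and Ptprr. The test over all genes called 0 of the 17.

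Markers of neuron types were summed in each library to see what moved with Ptpn5. For 6 markers of excitatory neurons the sum was 3723, 3322 and 4320 CPM in n-Braf, against 3443, 3550 and 3295 CPM in the controls, and the groups overlapped. Ptpn5 was lowest of its group in n-Braf 3, where this sum was highest. For 5 markers of CA1 pyramidal neurons the sum was 362, 379 and 369 CPM in n-Braf, against 296, 306 and 328 CPM in the controls, without overlap. Taken singly, only 1 of the 5 (Ndst4) separated the groups, while Wfs1, Fibcd1, Mpped1 and Gpr161 overlapped. Each of these 5 markers had a log2 fold change above 0 (median 0.27), as had all 6 excitatory, all 6 interneuron and all 6 neocortical markers (medians 0.17, 0.093 and 0.23). All 5 dentate granule markers were below 0 (median -0.16). Markers of CA2 and CA3 split into 3 above and 3 below (median 0.0075), and striatal markers into 4 above and 4 below (median 0.070). Of all genes tested, 49% were above 0, 6.09% were separate with n-Braf above and 5.44% with n-Braf below. Ptpn5 and the CA1 sum had the same order across the controls but not across n-Braf, where n-Braf 3 was lowest in Ptpn5 and n-Braf 1 lowest in the sum. Expressed as a percentage of the CA1 sum, Ptpn5 was at 24.7%, 25.4% and 22.6% in n-Braf, against 22.2%, 22.5% and 23.0% in the controls, so the groups overlapped. Ptprr was at 6.44%, 5.004% and 5.57% in n-Braf, against 5.56%, 5.31% and 5.32% in the controls, with overlap too. A fit added after the data were seen used the mean log2 CPM of the CA1 markers, not their sum, as a covariate. In it the log2 fold change of Ptpn5 was 0.20 (SE 0.24) and that of Ptprr 0.46 (SE 0.31). The CA1 sums separate the groups themselves, and the part of CA1 markers in the difference was not tested beyond this fit.

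**Figure D3:**
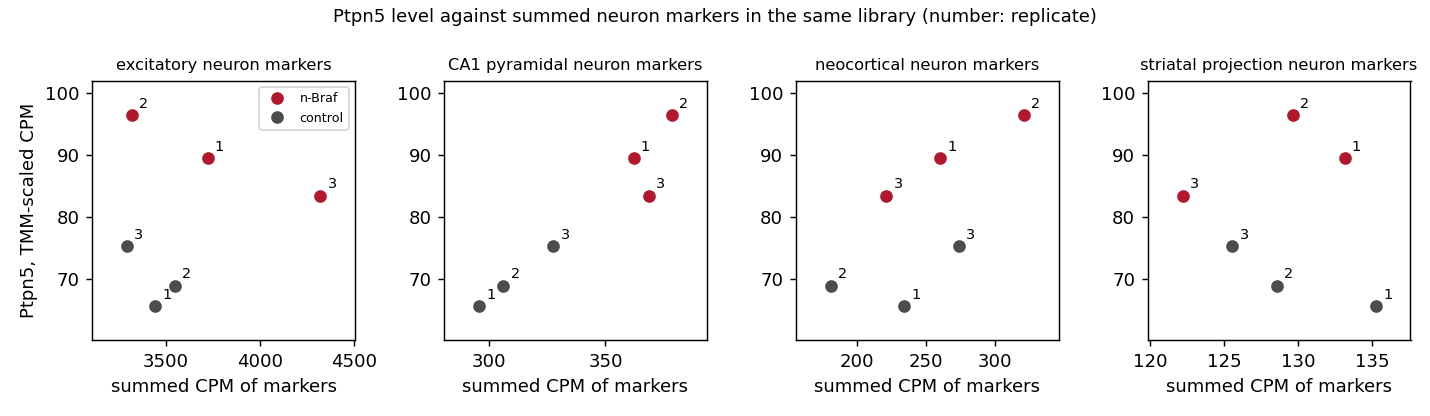
Ptpn5 level (y axis, TMM-scaled CPM) against the summed CPM of 4 lists of neuron markers in the same library (x axes, which do not start at 0); red is n-Braf, grey is control, and numbers are replicates. The CA1 sums separate the groups as Ptpn5 does (362 to 379 CPM in n-Braf, 296 to 328 CPM in the controls), while the excitatory, neocortical and striatal sums overlap. Of the 5 CA1 markers only Ndst4 separates the groups by itself, with n-Braf above, as 6.09% of all genes tested do.

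Because STEP is enriched in the striatum, 8 markers of striatal projection neurons were also summed. They gave 122 to 133 CPM in n-Braf mice and 126 to 135 CPM in control mice, with overlap. Adora2a averaged 0.703 CPM in n-Braf mice and 0.503 CPM in control mice, and Drd2 1.12 and 0.857 CPM in the same order, so these defining striatal genes were near 0 in both groups. With the mean log2 CPM of the striatal markers, not their sum, as a covariate, the log2 fold change of Ptpn5 was 0.35. Markers of neocortical neurons summed to 221 to 321 CPM in n-Braf mice and 181 to 274 CPM in control mice, with n-Braf 2, the library highest in Ptpn5, also the highest here. Tshz2 was the largest part of this sum, at 115, 184 and 105 CPM in n-Braf, against 116, 69.6 and 140 CPM in the controls. Fezf2 too was highest in n-Braf 2, but Cux2, Rorb, Lamp5 and Rspo1 were highest in n-Braf 1. With the mean log2 CPM of the neocortical markers, not their sum, as a covariate, the log2 fold change of Ptpn5 was 0.27 (SE 0.076). Sums of the dentate granule (240.7 to 427 CPM in n-Braf, 301 to 372 in the controls), CA2 and CA3 (187 to 212 in n-Braf, 189 to 204 in the controls) and interneuron (434 to 439 in n-Braf, 373 to 446 in the controls) markers overlapped.

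Among other cells, the astrocyte sum was 4499 to 4599 CPM in n-Braf mice and 3973 to 4247 CPM in control mice, without overlap, and Slc1a2, a glutamate transporter gene, made up most of it (3661 CPM in n-Braf, 3282 CPM in the controls). Oligodendrocyte markers summed to 1383 to 1890 CPM in n-Braf mice and 1627 to 2105 CPM in control mice, with overlap. All 6 of these markers had a log2 fold change below 0 (median -0.29), while 49% of all genes tested were above 0. Oligodendrocyte precursor (91.3 to 102 CPM in n-Braf, 87.4 to 99.7 in the controls), microglial (90.0 to 126 in n-Braf, 109 to 136 in the controls) and endothelial (111 to 124 in n-Braf, 106 to 122 in the controls) sums overlapped. Controls 1 and 2 stood apart by the choroid plexus, with marker sums of 2222 and 1236 CPM, against 27.3 CPM in control 3 and 16.6 to 27.5 CPM in n-Braf. Across controls 1, 2 and 3 the order of Ptpn5 (65.6, 68.9 and 75.2 CPM) was the reverse of that of these sums. With the mean log2 CPM of choroid plexus markers as a covariate, the log2 fold change was 0.26 (SE 0.12) for Ptpn5 and 0.24 (SE 0.16) for Ptprr. In that fit Ptpn1 was at 0.15 (SE 0.11) and Ptpn11 at 0.040 (SE 0.12). The part of the choroid plexus in these differences was not tested beyond this fit. Ependymal markers summed to 5.44 to 8.51 CPM in n-Braf mice and 13.1 to 23.7 CPM in control mice. With controls 1 and 2 left out, the single control left is taken to vary as much as n-Braf mice do, and the log2 fold change was 0.25 (SE 0.12) for Ptpn5, 0.26 (SE 0.16) for Ptprr, 0.14 (SE 0.11) for Ptpn1 and 0.039 (SE 0.12) for Ptpn11. None of the markers tested on the 14 lists was at 0 in a library, and Aqp1, Otx2 and Tmem212 were not analysed here.

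**Figure D4:**
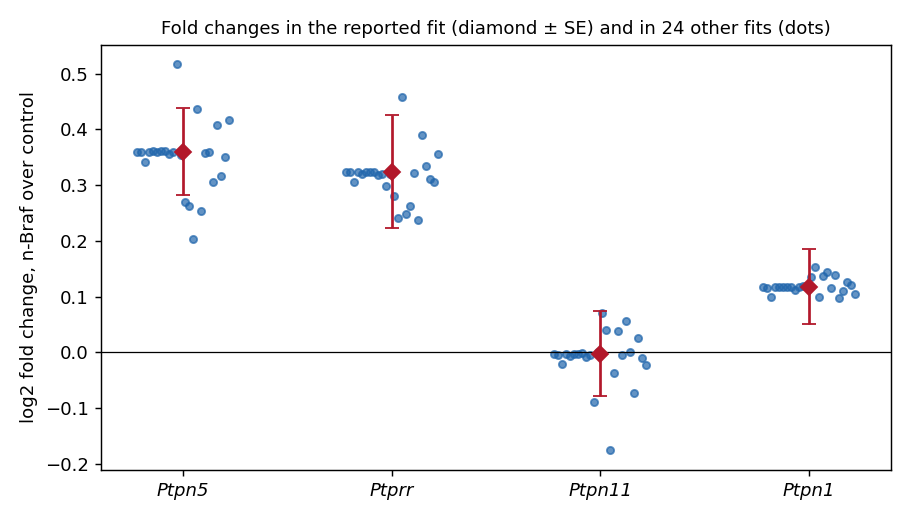
Log2 fold change of n-Braf over control (y axis) for each phosphatase gene in the reported fit (red diamond, with SE) and in 24 alternative fits (blue dots). Ptpn5 stays between 0.20 and 0.52 and Ptprr between 0.24 and 0.46, Ptpn1 lies near 0.12, and Ptpn11 falls on both sides of 0.

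Among the genes with the pattern most like that of Ptpn5 over the 6 libraries were Peg13, an imprinted non-coding RNA (Pearson r of log2 CPM 0.997), Rab4b, a GTPase of endosomes (0.992), Ube2b, a ubiquitin-conjugating enzyme (0.988), and Cyc1, a subunit of the respiratory chain (0.986). They were taken from 8935 named genes with a mean of at least 10 CPM. The 6 points share 2 group levels, and 30 genes had a rank correlation of 1 with Ptpn5, so these values describe the order of the libraries only. Rab4b was at 23.7, 24.4 and 22.5 CPM in n-Braf mice, against 18.9, 20.01 and 20.6 CPM in the controls. Among the other members r with Ptpn5 was 0.771 for Ptprr, 0.792 for Ptpn1 and -0.266 for Ptpn11.

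Promoter sequences from RefSeq (GRCm38.p6, 300 bases, of which 250 precede the start) were available for all 4 genes. They were searched on both strands for letters bound by factors downstream of ERK or of neuronal activity. The motifs were the CRE (TGACGTCA), the AP-1 site (TGACTCA or TGAGTCA), the EGR site (GCGTGGGCG or GCGGGGGCG), an ETS site (CCGGAAGT) and, by name, the CArG box of SRF. None overlaps another in these promoters. Of 32851 promoters in all, 1.79% held the CRE, 5.20% an AP-1 site, 3.47% an EGR site, 3.89% the ETS site and 1.63% a CArG box. Ptpn11 held a CRE that begins 67 bases before the start and an EGR site that begins 38 bases before it, and Ptpn1 held an EGR site and an ETS site. In Ptprr, 2 of the 4 annotated starts, internal to the gene, shared a CArG box, and the other starts held no match. Neither of the 2 promoters of Ptpn5 held these letters. No match says only that these letters are not in this window. The bases before the upstream start of Ptpn5 (chr7:47133685-47133934, minus strand) are shown as the member with the largest difference, followed by the windows of Ptpn11 (chr5:121191412-121191479, minus strand) and Ptprr (chr10:116177172-116177211, plus strand) that hold a match, in capitals.
Ptpn5: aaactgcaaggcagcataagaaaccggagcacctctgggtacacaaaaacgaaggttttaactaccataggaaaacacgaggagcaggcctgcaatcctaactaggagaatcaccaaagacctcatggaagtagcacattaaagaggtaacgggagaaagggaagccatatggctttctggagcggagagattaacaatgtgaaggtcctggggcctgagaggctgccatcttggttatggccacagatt
Ptpn11: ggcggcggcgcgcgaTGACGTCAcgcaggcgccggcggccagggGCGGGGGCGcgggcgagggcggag
Ptprr: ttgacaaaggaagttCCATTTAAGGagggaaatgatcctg
The upstream promoter of Ptpn5 had a GC content of 48.7% and the downstream one of 69.0%, beside 68.7% for Ptpn11, 74.0% for Ptpn1 and a median of 52.7% over all promoters.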

How the data were processed

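Hippocampal RNA of 6 male mice (3 n-Braf, 3 control), 10.0 ng of total RNA each, was made into libraries with the SMART-Seq Stranded kit, per the labels' protocols. The deposited values are expected counts from RSEM, 1 row a gene, and log2 fold changes, log2 CPM, p-values and adjusted p-values from edgeR by the authors. Per the submitters' processing notes the tools were bcl2fastq 2.20, fastp 0.20.1, STAR, RSEM and edgeR 3.36.0 on mm10. Versions of STAR and RSEM, the annotation and the strand setting are not given in the sources used here, so reads of overlapping antisense genes may be included.

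Estimated counts were rounded and tested with edgeR 4.0.16 (quasi-likelihood, TMM, filterByExpr with a minimum count of 10, Benjamini-Hochberg over 20604 genes) in R 4.3.3. Alternatives used DESeq2 1.42.0 and limma 3.58.1. The script was tested on simulated counts. Levels are CPM. Per-length values use GENCODE M21, matched for 20110 of the genes tested. The table had 384 genes without a symbol.

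The 4 phosphatases and all lists were chosen with earlier results of these data known, and patterns in them are not independent support. Named beside the 4 were Braf, the 4 genes of each pathway list with the smallest unadjusted p, the 8 such family genes and the 5 most abundant per length, and the 5 genes most correlated with Ptpn5. Values of 2 genes are not reported here. No pair of libraries agreed within sampling noise. Each library is 1 mouse. Wild-type mice were not analysed here.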

Additional observations from a re-analysis of the deposited data

How the results depend on the processing

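The count of genes called in the edgeR quasi-likelihood test, 0 as reported, was 2 at an adjusted p of 0.1, 79 with DESeq2, 5 with robust quasi-likelihood, 1 without the legacy setting, 6 with striatal and 1 with neocortical markers as a covariate, 3 without controls 1 and 2, and 1 without mitochondrial and the 20 most abundant genes. Leaving out each replicate in turn gave 0 to 82 genes, the 82 without control 3. The cause was not tested.

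The log2 fold change of Ptpn5 (0.36) was 0.52 with age as a covariate, 0.25 without controls 1 and 2 and 0.20 with CA1 markers as a covariate, and 0.31 to 0.42 without 1 replicate. Ptprr (0.32) and Ptpn1 (0.12) kept their direction and did not pass under the 24 alternatives run for each, at 0.24 to 0.46 and 0.098 to 0.15, and at 0.24 to 0.39 and 0.098 to 0.14 without 1 replicate. Ptpn11 (-0.0019) turned positive with striatal (0.00065), neocortical (0.071) and choroid plexus (0.040) markers as a covariate and without controls 1 and 2 (0.039), and ran from -0.072 to 0.057 without 1 replicate. With 3 mice a group, differences within the intervals given are not resolved.

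Libraries with the same replicate number did not deviate together (correlations of 0.10, -0.046 and -0.014). Pairs across the groups with different numbers ran from -0.12 to 0.16. These values show no pairing by number, but with 3 mice a group they cannot settle whether mice were paired. With the replicate block the test called 0 genes, and the log2 fold changes were 0.36 for Ptpn5, 0.32 for Ptprr, -0.0050 for Ptpn11 and 0.12 for Ptpn1.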
